A study of Mus musculus with 8 samples.

Results

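Solute carriers are membrane proteins that move small molecules across the plasma membrane and across the membranes of vesicles and organelles, and together they set which sugars, acids, amino acids, nucleosides and metals a cell can take up, release or store. Many are driven by gradients of sodium or protons, several work only with a partner protein that brings them to the membrane, and blood cells change the set they use as they mature from stem cells into granulocytes, macrophages or erythroid cells. The carriers described here were the rows of the gene count table whose symbol had the form Slc, number, letter, number. Mitochondrial carriers of the Slc25a family and the erythrocyte anion exchanger Slc4a1 were left out. Of 221 such symbols, 179 had a summed count of at least 50 over the 8 libraries and were kept, out of 15576 gene rows in all. They were thus chosen by their summed count over both groups, and 42 symbols fell below it. Just inside the limit lay the dopamine carrier Slc6a3 with 52 counts, and just outside it Slc9b1 with 49 counts, 48 of which came from the library CML-TKI 1. By their families the members were sorted into 13 classes, the largest being 33 amino acid and peptide carriers, 27 metal and heme carriers, 24 nucleotide sugar and related carriers, 21 ion and pH carriers and 15 carriers of glucose and other sugars. The rest were 13 carriers of organic ions and amines, 10 of lipids and choline, 8 of vitamins, 7 of phosphate, sulfate and dicarboxylates, 6 of nucleosides and nucleobases, 6 of monocarboxylates other than lactate, 5 of osmolytes and 4 of lactate. At least 1 member, Slc8b1, is known as a sodium-calcium exchanger of the mitochondrial membrane rather than of the plasma membrane or of vesicles, and it was kept because the rule on symbols takes it in.

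All 8 libraries came from C57BL/6 mice carrying both BCR-ABL and SCL-tTA, a model of chronic myeloid leukemia (CML) in which SCL drives the transactivator tTA. Tetracycline blocks tTA, and without it tTA turns on BCR-ABL. Bulk RNA was sequenced from sorted bone marrow cells that the study calls leukemic stem cells (LSCs), in 4 libraries without treatment (CML) and 4 from mice given the tyrosine kinase inhibitor imatinib by gavage (CML-TKI). The labels give 400 mg/kg every other day for 4 weeks in one field and 30 days in another. The study's methods allow a lower dose as well and its legend for the RNA-seq of these LSCs gives that lower dose, so which dose these mice received is unclear. Age is not stated. The comparison is between libraries from imatinib-treated and untreated mice, and the study names the cells of both groups LSCs. Markers differed between the groups, as given below, so it is not shown that both hold the same kind of cell. Nothing states whether the libraries of a group are from separate animals or pools, so p-values measure the spread between these libraries only. The CML library whose column is named 5 has no matching label number and is called CML 5.

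The labels give 1 gate for all libraries, lineage-negative, Sca1-positive, cKit-positive, Flt3-negative, CD150-negative and CD48-positive, whereas the study describes LSCs as CD48-negative and CD150-positive. Slamf1, which encodes CD150, was at 37.7, 31.5, 31.3 and 29.01 CPM in CML and 4.56, 0.620, 6.58 and 1.56 CPM in CML-TKI, and Cd48 was at 6.401, 5.79, 3.86 and 4.12 CPM and 39.9, 178, 97.5 and 97.6 CPM. So the CML libraries went against the labelled gate, with more Slamf1 than Cd48 counts, and the CML-TKI libraries had the reverse. Summed over 10 HSC markers, the level was 1114 to 1459 CPM in CML and 48.0 to 427 CPM in CML-TKI. Marker sums for granulocytes (13 genes) were 164 to 272 against 1476 to 8457 CPM, and for monocytes and macrophages (10 genes) 241 to 347 against 1353 to 6934 CPM. The 7 erythroid markers reached 24936 CPM in CML-TKI 3 and at most 423 CPM in any other library, and the 6 megakaryocyte markers were at 1202 to 1446 against 48.7 to 584 CPM. Of the other lists, mast cell and basophil markers were at 2.06 to 3.86 CPM in CML with Mcpt8 at 0, and at 4.38 to 323 CPM in CML-TKI. Lymphoid markers were at 0.386 to 1.91 CPM in CML with Cd3e at 0 and at 4.18 to 178 CPM in CML-TKI. Endothelial and stromal markers were at 26.8 to 294 and 0 to 106 CPM. Over the 5 genes that the gates refer to (Kit, Ly6a, Flt3, Cd48 and Slamf1) the sum was 852 to 1113 CPM in CML and 380 to 422 CPM in CML-TKI. Kit, which encodes cKit, was lower in every CML-TKI library (edgeR, log2 fold change -1.92, adjusted p = 0.000870), whereas Ly6a and Flt3 overlapped. The groups did not overlap in the sums of HSC, gate, granulocyte, monocyte, megakaryocyte, mast cell and lymphoid markers. They overlapped in those of erythroid and of endothelial and stromal markers. The part of these cells in the results on carriers was not tested. In bulk RNA, fewer cells of a type and less RNA per cell cannot be told apart.

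Library totals ran from 1.04e+06 counts (CML-TKI 3) to 8.62e+06 counts (CML 5), and 0.701% to 1.07% of the counts of a library lay in the 179 carriers. A count of 3, taken as the floor, corresponded to 0.409 to 0.580 CPM in CML and to 0.570 to 3.29 CPM in CML-TKI, and covers counting error only. CPM are library counts scaled to a common total with TMM factors, and values are listed in the order CML 1, 2, 3 and 5 and then CML-TKI 1, 2, 3 and 4. 3 of the 4 CML libraries were close to each other. Pairs among CML 1, 2 and 3 differed by 3.91 to 6.35 times the sampling variance per gene, while each of them differed from CML 5 by 103 times and pairs of CML-TKI libraries differed by 25.4 to 66.5 times. Pairs among CML 1, 2 and 3 thus differed by more than counting error, whether they are 3 independent samples is not stated, and the main count is given also with the 3 summed to 1 library.

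The CML-TKI libraries had more RNA than the CML libraries of the lysosomal carriers Slc2a6 and Slc36a1, the ergothioneine carrier Slc22a4 and the lactate exporter Slc16a3. They had less of the glucose carrier Slc2a3, the urate carrier Slc2a9, the monoamine carrier Slc18a2 and Slc16a9. The groups also differed in their cell type markers, and the part of unlike cells in these differences was not tested. Of the 179 carriers, 163 passed the filter on low counts and were tested, and edgeR's quasi-likelihood test called 22 of them at an adjusted p under 0.05, that is 13.5%, where 10.2% of all 11937 genes were called. 15 were higher in CML-TKI (9.20% of the carriers tested, 6.29% of all genes) and 7 were lower (4.29% of the carriers, 3.93% of all genes). The median log2 fold change of the carriers was 0.18, with 91 above and 72 below 0, and that of all genes was -0.00026. The median of the carriers fell to 0.033 without CML-TKI 1. It turned to -0.039 with limma-voom, which here and below was run only with quality weights on the libraries. In 21 tested carriers every CML-TKI library lay above every CML library, or 12.9% of them, against 10.3% of all genes, and in 26 every CML-TKI library lay below, or 16.0%, against 13.1%. The share called and both shares that did not overlap were thus near those of all genes. At an unadjusted p under 0.05 the share was 33.7% of the carriers and 25.7% of all genes, DESeq2 called 23.2% and 17.7%, and limma-voom 27.6% and 21.3%. Counts by these rules further on are read against the same shares of all genes.

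The count depended on the libraries used. With CML 1 to 3 summed to 1 library, edgeR called 0 carriers, with 28 at an unadjusted p under 0.05 and a lowest adjusted p of 0.0846, and it called 122 of all genes. Leaving out 1 library gave 5 carriers without CML 1, 5 without CML 2, 4 without CML 3, 12 without CML 5 and 48 without CML-TKI 1, and 16, 18 and 17 without CML-TKI 2, 3 and 4. All genes moved with them. Without CML 1, 2, 3 and 5, 4.13%, 4.51%, 4.69% and 6.60% of all genes were called, against 2.99%, 2.99%, 2.41% and 7.10% of the carriers. Without CML-TKI 1, 2, 3 and 4, the shares were 20.6%, 7.38%, 9.79% and 8.36% of all genes and 28.9%, 9.52%, 10.8% and 10.2% of the carriers. None of the carriers called without CML 1, CML 2 or CML 3 was lower in CML-TKI, where 72.1%, 69.0% and 71.2% of all genes called were higher, against 61.6% with all libraries. Slc12a9, Slc16a3 and Slc22a4 kept the call in each of these 8 fits. CML-TKI 1 was the CML-TKI library nearest to the CML mean in 13 of the 22 called carriers, and its marker sums for granulocytes and monocytes were the lowest of its group. None of the 22 changed direction in any of 19 other settings.

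**Figure D1:**
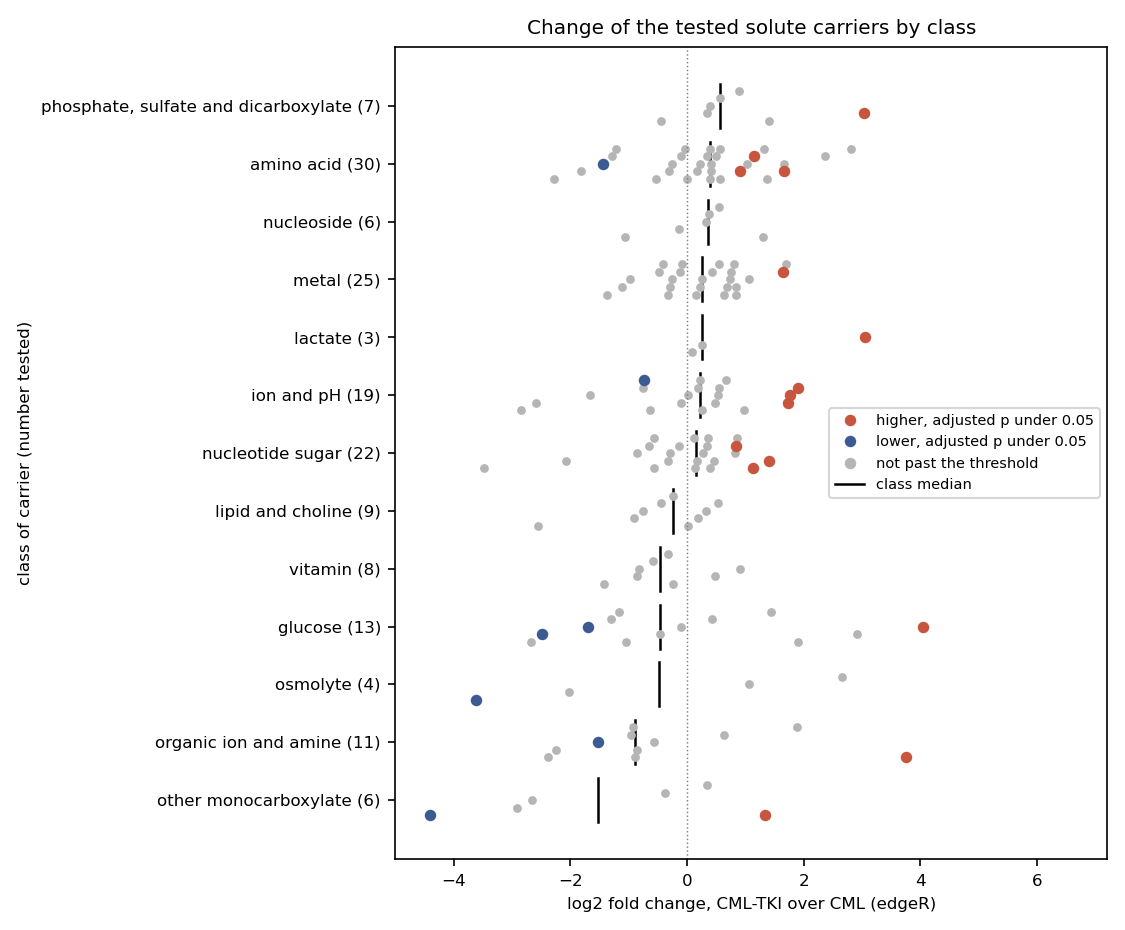
Log2 fold change between CML-TKI and CML libraries (x axis, edgeR) of the 163 carriers tested, 1 point each, by class (y axis, with the number tested), where red and blue points passed an adjusted p of 0.05, black bars are class medians and the height of a point within its class has no meaning. Each class except lactate (3 points, all above 0) held points on both sides of 0, and the called carriers spread over 10 of the 13 classes.

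Reference promoters of the called carriers were searched for a fixed set of motifs. Windows are printed for the E-box, a short motif held by several of those that rose, and that choice followed the results. No test of the shares was made, and so few promoters cannot set the called carriers apart from the rest. Promoters, 250 bases before to 50 after a start site, were taken from RefSeq (GRCm38.p6, the build of all coordinates given here) and found for 13 of the 15 carriers called higher and 5 of the 7 called lower. The E-box CACGTG, a palindrome that contains the hypoxia core ACGTG on either strand, lay in 5 of 14 promoters of carriers called higher (35.7%), in 1 of 5 of those called lower (20%), and in 25 of 164 promoters of all carriers tested (15.2%). It was in 10.1% of the promoters of all genes tested and in 7.15% of all 32851 promoters. The longer form TCACGTGA, known from genes of the lysosome, was in 2 of the 14 (Slc36a1 and Slc35a5), in 1.83% of the promoters of carriers tested, in 1.86% of those of all genes tested and in 0.974% of all promoters. The motifs were searched on both strands. In 30 bases around the E-box, read 5′ to 3′ on the gene's strand with CACGTG in capitals, the windows were
Slc36a1, chr11:55204325-55204354, plus strand: gggagccagcatCACGTGacagggcccgga
Slc35a5, chr16:45158746-45158775, minus strand: cacctaaggcctCACGTGactcgactctcc
Slc12a9, chr5:137333671-137333700, minus strand: acacccgagacgCACGTGgaacggtttggc
Slc31a2, chr4:62286417-62286446, plus strand: acctcaccgggcCACGTGactcgcgtggcc
Slc22a4, chr11:54028315-54028344, minus strand: cgctctccctccCACGTGgggccgagaaag
Slc43a1, called lower, chr2:84840247-84840276, plus strand: agggtctccctcCACGTGgcagccgtggga
A match describes the reference letters and says nothing of what binds there. Slc36a1 and Slc35a5 each held a further E-box within the same promoter. The STAT motif TTCNNNGAA was in 1 of the 14 promoters (Slc35b1, 7.14%), in 6.10% of the promoters of carriers tested, in 6.77% of those of all genes tested and in 8.30% of all. GAGGAAGT, a motif of PU.1, was in that of Slc12a4 and, among carriers called lower, of Slc43a1. It lay in 4.27% of the promoters of carriers tested, in 3.31% of those of all genes tested and in 3.202% of all. TTGCGCAA (C/EBP) was in none of the promoters of carriers tested, in 0.298% of those of all genes tested and in 0.183% of all. TGATGNAA (ATF4 and CHOP) was in that of Slc26a10, in 4.88% of the promoters of carriers tested, in 2.20% of those of all genes tested and in 3.97% of all. ACGTG alone, which every CACGTG holds, was in 7 of the 14 (50%), Slc16a3 among them, in 29.9% of the promoters of carriers tested, in 25.7% of those of all genes tested and in 19.6% of all.

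Glucose and other sugars enter blood cells mainly through the facilitative carriers of the Slc2a family. Of the 13 tested members of this class, 1 was called higher and 2 lower, and the median log2 fold change was -0.47. Slc2a3, a high-affinity glucose carrier of the plasma membrane (chromosome 6, 122727809 to 122802363), was at 184, 169, 179.5 and 225 CPM in CML and 93.8, 17.7, 46.03 and 73.4 CPM in CML-TKI. All 4 CML-TKI libraries lay below all CML libraries, with CML-TKI 1 nearest to them and CML-TKI 2 lowest (log2 fold change -1.70 ± 0.43 SE, adjusted p = 0.0329; call kept in 2 of 8 fits that left out a library). Slc2a1, the widely used basal glucose carrier, was at 43.99, 30.7, 29.4 and 43.6 CPM in CML and 62.1, 61.4, 60.3 and 15.1 CPM in CML-TKI. 3 CML-TKI libraries lay above every CML library and CML-TKI 4 lay below all of them, so the groups overlapped and the difference did not pass (log2 fold change 0.42 ± 0.42 SE, adjusted p = 0.573). Per kilobase of exon, Slc2a3 had the highest mean over all libraries among sugar carriers, with 26.1 CPM per kb in CML and 7.97 CPM per kb in CML-TKI, and Slc2a1 had 10.5 CPM per kb in CML and 14.2 CPM per kb in CML-TKI. By these means Slc2a3 lay above Slc2a1 in CML and below it in CML-TKI, with no test of that order. The order of the CML-TKI means did not hold in CML-TKI 4. There Slc2a3 was at 73.4 CPM over 7245 bases of exon and Slc2a1 at 15.1 CPM over 3506 bases.

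Slc2a6, a hexose carrier of lysosomes (chromosome 2, 27021363 to 27028000), had the largest positive log2 fold change of the 163 carriers tested. It was at 0.136, 2.51, 0.773 and 1.24 CPM in CML and 12.5, 33.8, 20.8 and 10.1 CPM in CML-TKI. In CML these are 1 to 13 counts a library, at or near the floor, and every CML-TKI library lay above every CML library (log2 fold change 4.04 ± 0.79 SE, adjusted p = 0.0119; kept in 7 of 8 fits). Slc2a9, which carries urate more than glucose, was at 28.2, 23.4, 33.05 and 33.3 CPM in CML and 4.75, 7.75, 0 and 7.02 CPM in CML-TKI. It fell in every CML-TKI library and had no count in CML-TKI 3, the shallowest (log2 fold change -2.48 ± 0.60 SE, adjusted p = 0.0284; kept in 4 of 8 fits). Slc2a10, Slc2a8 and the sugar phosphate exchanger Slc37a1 were also lower in every CML-TKI library without passing (edgeR, log2 fold changes -2.68, -1.04 and -1.30, adjusted p = 0.103, 0.183 and 0.0896). These and the other carriers without a call that are neither well-known members nor the highest of a class were picked after their values were seen. The summed level of the class was 430 to 591 CPM in CML and 212 to 447 CPM in CML-TKI, and the ranges overlapped through CML-TKI 1. Txnip and Arrdc4, arrestin-like proteins known to lower glucose uptake, both fell, Txnip from 584, 584, 718 and 713 CPM to 159.7, 144, 184 and 194 CPM and Arrdc4 from 37.6, 47.5, 47.2 and 40.1 CPM to 8.93, 13.3, 12.1 and 11.2 CPM (edgeR, log2 fold changes -1.93 and -1.93, adjusted p = 0.000804 and 0.00262).

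Lactate leaves or enters cells with a proton through carriers of the Slc16a family, of which Slc16a3 is known as the exporter of strongly glycolytic cells and Slc16a1 as the widely expressed one. Slc16a3 (chromosome 11, 120948484 to 120959000) was at 6.26, 6.37, 5.60 and 12.6 CPM in CML and 95.7, 26.3, 107 and 29.4 CPM in CML-TKI. Each CML-TKI library lay above each CML library, CML 5 was the highest of its group and CML-TKI 1 and CML-TKI 3 were the highest of theirs (log2 fold change 3.05 ± 0.55 SE, adjusted p = 0.00845). The group levels were 7.72 ± 3.30 CPM in CML and 64.7 ± 42.8 CPM in CML-TKI (mean ± SD, n = 4 each). Slc16a1 was at 154, 160.4, 116 and 131 CPM in CML and 120.4, 241, 103 and 204 CPM in CML-TKI. These values overlapped and the 2 highest were CML-TKI 2 and CML-TKI 4, the 2 CML-TKI libraries lowest for Slc16a3 (log2 fold change 0.26 ± 0.29 SE, adjusted p = 0.626). Per kilobase, Slc16a1 remained the higher of both, with 31.7 CPM per kb in CML and 37.8 CPM per kb in CML-TKI against 1.45 CPM per kb in CML and 12.2 CPM per kb in CML-TKI for Slc16a3. Slc16a7, a high-affinity form, was at 25.9, 20.1, 25.7 and 8.52 CPM in CML and 10.6, 10.8, 47.1 and 18.99 CPM in CML-TKI, with the highest value in CML-TKI 3 and no call (log2 fold change 0.08 ± 0.56 SE, adjusted p = 0.952). Slc5a8, a sodium-coupled lactate carrier, had 94 counts in CML-TKI 1 and none in any other library, and was not tested. Summed over the 4 genes the level was 147 to 187 CPM in CML and 245 to 279 CPM in CML-TKI, with no overlap. Slc5a8, which reached the count limit through CML-TKI 1 alone, made up 17.9 CPM of the 245 CPM in that library and nothing in the others. Of the partner proteins that carry these exporters to the membrane, Emb rose from 37.04, 33.6, 42.3 and 34.1 CPM to 165, 701, 429.6 and 338 CPM and Nptn from 52.6, 48.8, 52.4 and 42.8 CPM to 91.9, 119, 90.97 and 108 CPM (edgeR, log2 fold changes 3.47 and 1.06, adjusted p = 0.00110 and 0.00965), while Bsg, the main partner of Slc16a1 and Slc16a3, was at 123, 134, 119 and 182 CPM and 297, 159.9, 111 and 159 CPM (log2 fold change 0.39, adjusted p = 0.468).

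Of 6 monocarboxylate carriers with other substrates, Slc16a9, a carnitine carrier, was called lower and Slc16a6, a ketone body carrier, was called higher. Slc16a9 was at 28.9, 18.9, 28.8 and 26.5 CPM in CML and 1.52, 0, 5.48 and 0 CPM in CML-TKI. It had no count in CML-TKI 2 and CML-TKI 4 and 8 and 5 counts in CML-TKI 1 and CML-TKI 3, and all 4 lay below the CML range (log2 fold change -4.41 ± 1.04 SE, adjusted p = 0.0269; kept in 4 of 8 fits). Slc16a6 was at 38.8, 40.3, 35.9 and 28.3 CPM in CML and 37.8, 132, 96.4 and 98.3 CPM in CML-TKI. CML-TKI 1 lay within the CML range and the other 3 CML-TKI libraries lay above it (log2 fold change 1.34 ± 0.35 SE, adjusted p = 0.0403; kept in 1 of 8 fits). Slc16a6 shares bases with Amz2 and Arsg on the opposite strand and Slc16a9 with Gm7097, and no source says that reads were counted by strand. The creatine carrier Slc16a12 was lower in every CML-TKI library without passing (edgeR, log2 fold change -2.65, adjusted p = 0.213).

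**Figure D2:**
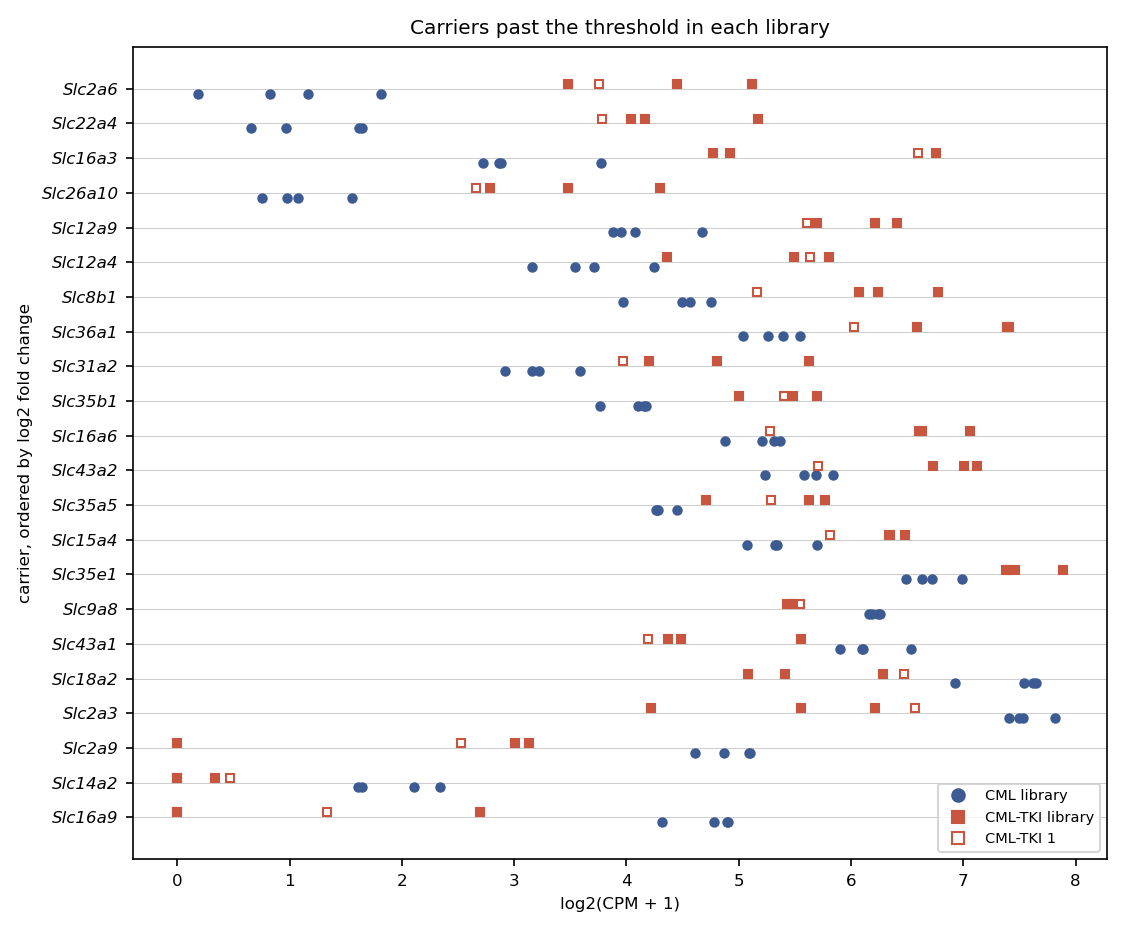
Level of the 22 called carriers in each library as log2(CPM + 1) (x axis), ordered by log2 fold change (y axis), with CML libraries as circles, CML-TKI libraries as squares and CML-TKI 1 as an open square. The groups were apart in 20 carriers and overlapped through CML-TKI 1 in Slc16a6 and Slc43a2.

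Amino acid carriers supply protein synthesis and, at the lysosome, report amino acid supply to mTORC1. Of 30 tested members, 3 were called higher and 1 lower, and the median log2 fold change was 0.39. Among the 3 that rose were a pair of lysosomal carriers. Slc36a1, which takes amino acids out of the lysosome with a proton (chromosome 11, 55204322 to 55236330), was at 37.3, 31.8, 45.6 and 40.97 CPM in CML and 64.4, 168, 167 and 94.96 CPM in CML-TKI. CML-TKI 1 lay nearest to the CML libraries and above all of them, and CML-TKI 2 and CML-TKI 3 were highest (log2 fold change 1.66 ± 0.33 SE, adjusted p = 0.0120; kept in 6 of 8 fits). Slc15a4, a histidine and peptide carrier of the endolysosome, was at 38.9, 39.6, 32.7 and 50.7 CPM in CML and 55.3, 80.6, 80.01 and 88.2 CPM in CML-TKI. The groups were apart, with CML-TKI 1 only slightly above CML 5 (log2 fold change 0.91 ± 0.24 SE, adjusted p = 0.0429; kept in 2 of 8 fits). Its relative Slc15a3, also lysosomal, was at 1.09, 1.54, 4.06 and 1.24 CPM in CML and 1.33, 8.68, 17.5 and 14.6 CPM in CML-TKI, with CML-TKI 1 inside the CML range and no call (log2 fold change 2.37 ± 0.84 SE, adjusted p = 0.104).

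Slc43a1 and Slc43a2, both carriers of large neutral amino acids, moved in opposite directions. Slc43a1 was at 67.7, 67.7, 58.9 and 91.6 CPM in CML and 17.3, 21.4, 19.7 and 46.05 CPM in CML-TKI. All CML-TKI libraries lay below the CML libraries, with CML-TKI 4 standing above the other 3 (log2 fold change -1.44 ± 0.35 SE, adjusted p = 0.0283; kept in 2 of 8 fits). Slc43a2 was at 56.1, 36.7, 50.6 and 47.02 CPM in CML and 51.3, 105, 138 and 128 CPM in CML-TKI. CML-TKI 1 lay inside the CML range, so the groups overlapped although the test was passed (log2 fold change 1.14 ± 0.31 SE, adjusted p = 0.0473; kept in 1 of 8 fits). No test of the difference between the pair was made, and Slc43a2 shares bases with Gm45606 on the opposite strand.

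The main amino acid carriers of the plasma membrane did not pass. Slc7a5, the essential amino acid exchanger, had the highest level per kilobase of any carrier in CML-TKI and of any amino acid carrier in CML, with 54.3 CPM per kb in CML and 71.2 CPM per kb in CML-TKI. It was at 185, 193, 159 and 268 CPM in CML and 389.7, 278, 225 and 164 CPM in CML-TKI, and CML-TKI 3 and CML-TKI 4 lay within the CML range (log2 fold change 0.39 ± 0.29 SE, adjusted p = 0.437). Its heavy chain Slc3a2 had nearly equal means, 96.2 ± 17.8 CPM in CML and 95.7 ± 45.2 CPM in CML-TKI (mean ± SD, n = 4 each) (log2 fold change 0.00 ± 0.32 SE, adjusted p = 0.997). The glutamine carrier Slc1a5 was at 145 ± 28.6 CPM in CML and 135 ± 36.1 CPM in CML-TKI (mean ± SD, n = 4 each) (log2 fold change -0.10 ± 0.25 SE, adjusted p = 0.839), and the cationic amino acid carrier Slc7a1 at 137 ± 12.7 CPM in CML and 203 ± 104 CPM in CML-TKI (mean ± SD, n = 4 each) (log2 fold change 0.57 ± 0.33 SE, adjusted p = 0.309). The small neutral amino acid carriers Slc38a1 and Slc38a2 were the most counted of the class, and Slc38a2 was at 347, 356, 333 and 284 CPM in CML and 620.1, 387, 480.0 and 366 CPM in CML-TKI. Every CML-TKI library was above every CML library for Slc38a2, but by little, and neither passed (log2 fold change 0.49 ± 0.22 SE, adjusted p = 0.195 for Slc38a2 and log2 fold change 0.39 ± 0.22 SE, adjusted p = 0.301 for Slc38a1). Slc7a11, the cystine importer that feeds glutathione synthesis, was low, at 2.72, 3.47, 2.13 and 3.57 CPM in CML and 12.7, 4.03, 9.86 and 11.4 CPM in CML-TKI. It was higher in each CML-TKI library and did not pass (log2 fold change 1.67 ± 0.55 SE, adjusted p = 0.0869). Slc6a9, the glycine carrier, was at 65.5 CPM in CML-TKI 1 and at 2.12 to 6.58 CPM in the other 7 libraries. The class sum was 2059 to 2226 CPM in CML and 2267 to 3260 CPM in CML-TKI, with CML-TKI 4 lowest and CML-TKI 1 highest. Of the 7 genes of the amino acid response followed beside them, 5 were tested (Atf4, Ddit3, Asns, Trib3 and Sesn2) and none was called by edgeR, with adjusted p of 0.331 to 0.910. CML-TKI 1, which had the highest class sum, was the highest library for Asns (195 CPM, others 24.8 to 66.1 CPM), Trib3 (24.9 CPM, others 0 to 10.4 CPM), Atf4 (245 CPM, others 77.8 to 158 CPM) and the untested Chac1 (26.2 CPM, others 0 to 1.86 CPM), and the part of these genes in the class sum was not tested.

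Nucleosides and nucleobases reach cells through the equilibrative Slc29a carriers and the sodium-driven Slc28a carriers. All 6 members were tested and edgeR called 0, with 1 at an unadjusted p under 0.05, 0 by DESeq2 and 1 by limma-voom. Slc28a2, the concentrative purine nucleoside carrier, was at 32.3, 31.3, 35.4 and 34.4 CPM in CML and 17.1, 106, 109 and 97.3 CPM in CML-TKI. CML-TKI 2, 3 and 4 lay above the CML libraries and CML-TKI 1 lay below them (log2 fold change 1.29 ± 0.47 SE, adjusted p = 0.117). The closely related Slc28a2b is a separate row that the symbol rule leaves out, and how shared reads were assigned was not stated. Slc29a3, the lysosomal member, and Slc43a3, a purine nucleobase carrier and the highest of the class per kilobase, also split the CML-TKI libraries. For Slc29a3 the values were 52.98, 53.1, 60.9 and 61.04 CPM in CML and 22.6, 93.6, 95.4 and 86.6 CPM in CML-TKI, and for Slc43a3 they were 66.7, 61.6, 66.9 and 66.95 CPM in CML and 36.1, 121, 67.95 and 155 CPM in CML-TKI. In both genes 3 CML-TKI libraries lay above the CML libraries, for Slc43a3 in CML-TKI 3 only just, and CML-TKI 1 lay below them (log2 fold change 0.38 ± 0.39 SE, adjusted p = 0.593 for Slc29a3 and log2 fold change 0.54 ± 0.39 SE, adjusted p = 0.423 for Slc43a3). Slc29a1, the main equilibrative carrier, was at 59.7 ± 28.5 CPM in CML and 74.96 ± 19.7 CPM in CML-TKI (mean ± SD, n = 4 each) and overlapped, CML 5 and CML-TKI 1 being the highest (log2 fold change 0.33 ± 0.34 SE, adjusted p = 0.588). The class sum was 201 to 286 CPM in CML and 195 to 427 CPM in CML-TKI. Of the enzymes that handle nucleosides inside the cell, deoxycytidine kinase Dck rose from 64.4, 61.4, 57.97 and 50.2 CPM to 85.1, 221, 237 and 131 CPM (edgeR, log2 fold change 1.52, adjusted p = 0.0164), and Ada, Pnp and Tk1 were not called.

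Metal carriers take part in iron, zinc, copper, manganese and magnesium supply. Of 25 tested, 1 was called higher and none lower by edgeR, or 4% of them, and the log2 fold changes ran from -1.37 to 1.69 with a median of 0.26. At an unadjusted p under 0.05 the count was 10, with 6 called by DESeq2 and 7 by limma-voom. Slc31a2, a copper carrier of endosomes and lysosomes, was at 6.54, 7.91, 8.31 and 11.00 CPM in CML and 14.6, 26.96, 48.2 and 17.4 CPM in CML-TKI. All CML-TKI libraries lay above the CML libraries, CML-TKI 3 most and CML-TKI 1 least (log2 fold change 1.64 ± 0.45 SE, adjusted p = 0.0460; kept in 2 of 8 fits). Slc31a1, which brings copper in at the plasma membrane, was at 51.2 ± 7.51 CPM in CML and 89.3 ± 50.9 CPM in CML-TKI (mean ± SD, n = 4 each) (log2 fold change 0.81 ± 0.35 SE, adjusted p = 0.181).

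The iron exporter Slc40a1, known from macrophages and erythroid cells, was at 13.6, 12.4, 14.3 and 16.6 CPM in CML and 6.08, 46.5, 65.8 and 67.6 CPM in CML-TKI. It was higher in CML-TKI 2, 3 and 4 than in any CML library and lowest in CML-TKI 1 (log2 fold change 1.69 ± 0.59 SE, adjusted p = 0.101). Slc11a1, an iron and manganese carrier of phagosomes, had 62 counts in all and was not tested, at 0.545, 0.193, 1.35 and 0.962 CPM in CML and 0.190, 6.82, 9.86 and 2.86 CPM in CML-TKI. Its ubiquitous relative Slc11a2 was at 32.6 ± 5.24 CPM in CML and 38.5 ± 21.9 CPM in CML-TKI (mean ± SD, n = 4 each) (log2 fold change 0.26 ± 0.40 SE, adjusted p = 0.736). Slc48a1, a heme carrier, had the highest level per kilobase of all carriers in CML, with 73.8 CPM per kb in CML and 37.9 CPM per kb in CML-TKI. It was at 192, 167, 188 and 265 CPM in CML and 77.9, 57.95, 195 and 86.6 CPM in CML-TKI, with CML-TKI 3, the library with the erythroid markers, inside the CML range and the other 3 below it (log2 fold change -0.98 ± 0.37 SE, adjusted p = 0.123). The transferrin receptor Tfrc rose from 104, 79.7, 80.6 and 59.7 CPM to 177, 294, 213 and 471 CPM and its regulator Hfe from 4.36, 6.37, 6.38 and 8.11 CPM to 9.88, 30.7, 60.3 and 14.3 CPM (edgeR, log2 fold changes 1.84 and 2.15, adjusted p = 0.00847 and 0.0435), while the ferritin genes Ftl1 and Fth1 were not called (adjusted p = 0.0946 and 0.997).

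Zinc carriers of the Slc39a family bring zinc into the cytosol and those of the Slc30a family remove it. EdgeR called 0 of them, with 4 at an unadjusted p under 0.05, 2 called by DESeq2 and 2 by limma-voom. Slc30a5 and Slc30a7, which load zinc into the secretory pathway, Slc30a9, and Slc39a7, which releases zinc from the endoplasmic reticulum, were higher in every CML-TKI library without passing (edgeR, log2 fold changes 0.63, 0.55, 0.74 and 0.68, adjusted p = 0.0826, 0.153, 0.114 and 0.0960). Slc39a1, the main plasma membrane importer here, was at 135 ± 30.3 CPM in CML and 112 ± 32.4 CPM in CML-TKI (mean ± SD, n = 4 each) (log2 fold change -0.27 ± 0.26 SE, adjusted p = 0.569), and the exporter Slc30a1 at 21.9 ± 2.02 CPM in CML and 29.1 ± 9.92 CPM in CML-TKI (mean ± SD, n = 4 each) (log2 fold change 0.43 ± 0.32 SE, adjusted p = 0.433). The magnesium carrier Slc41a1 was lower in every CML-TKI library and lay just short of the threshold (log2 fold change -1.37 ± 0.40 SE, adjusted p = 0.0555). Metallothionein Mt1 (log2 fold change 0.69, adjusted p = 0.453) was not called.

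Of 11 tested carriers of organic ions and vesicle amines, 1 was called higher and 1 lower, and the summed level of the class was 443 to 515 CPM in CML and 105 to 371 CPM in CML-TKI, without overlap. Slc18a2, which loads monoamines into vesicles and is known from megakaryocytes, platelets and mast cells, was at 185, 199.6, 196 and 120.4 CPM in CML and 87.9, 41.5, 32.9 and 76.7 CPM in CML-TKI. All 4 CML-TKI libraries lay below the CML libraries, of which CML 5 was the lowest (log2 fold change -1.53 ± 0.34 SE, adjusted p = 0.0192; kept in 4 of 8 fits). Slc18a2 shares bases with Gm29261 on the opposite strand. Slc22a3, a polyspecific organic cation carrier and the highest of the class per kilobase with 41.1 CPM per kb in CML and 8.88 CPM per kb in CML-TKI, was at 178, 188, 178 and 198 CPM in CML and 40.3, 0, 70.1 and 49.9 CPM in CML-TKI. It had no count in CML-TKI 2 and lay below every CML library in the other CML-TKI libraries, and it did not pass (log2 fold change -2.25 ± 0.87 SE, adjusted p = 0.136). Slc22a4, the ergothioneine carrier (chromosome 11, 53983115 to 54030040), went the other way, at 0.953, 0.579, 2.13 and 2.06 CPM in CML and 12.7, 15.5, 35.1 and 16.9 CPM in CML-TKI. In CML these are 3 to 15 counts a library, with CML 2 at the floor, so the size of the fold change rests on few counts. All CML-TKI libraries lay above all CML libraries, and Slc22a4 had the lowest adjusted p of the carriers tested (log2 fold change 3.76 ± 0.61 SE, adjusted p = 0.00499). The call was kept in 8 of 8 fits that left out a library. With CML 1 to 3 summed to 1 library its log2 fold change was 3.58 and its adjusted p 0.0987. Slc22a5, the carnitine importer of the same family, was not called (log2 fold change -0.56 ± 0.33 SE, adjusted p = 0.322). Slc47a1, a multidrug and toxin exporter, had 249 counts in CML-TKI 1 and none elsewhere.

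Of the cation-chloride carriers, which set cell volume, 2 rose. Slc12a9 (chromosome 5, 137314558 to 137340070) was at 14.4, 13.7, 15.8 and 24.5 CPM in CML and 47.9, 83.98, 73.4 and 50.7 CPM in CML-TKI. CML 5 was the highest CML library and lay below all CML-TKI libraries (log2 fold change 1.90 ± 0.31 SE, adjusted p = 0.00518; kept in 8 of 8 fits). Slc12a4, a potassium-chloride exporter, was at 12.1, 7.91, 10.6 and 18.01 CPM in CML and 48.8, 44.01, 54.8 and 19.5 CPM in CML-TKI. The gap was small, with CML 5 at 18.0 CPM and CML-TKI 4 at 19.5 CPM (log2 fold change 1.77 ± 0.40 SE, adjusted p = 0.0221; kept in 5 of 8 fits). Slc12a4 shares bases with Gm16156 on the opposite strand. Slc12a2, the sodium-potassium-chloride importer, was at 91.8, 94.6, 91.4 and 50.7 CPM in CML and 278, 1.55, 14.2 and 30.2 CPM in CML-TKI. Its group means were nearly equal, where CML-TKI 1 lay above and CML-TKI 2, 3 and 4 lay below every CML library (log2 fold change 0.01 ± 1.04 SE, adjusted p = 0.997). Without CML-TKI 1, edgeR called it lower (log2 fold change -2.40, adjusted p = 0.0415). The kinases that act on these carriers, Wnk1, Oxsr1 and Stk39, were not called.

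Slc8b1 was at 21.5, 14.7, 22.6 and 25.98 CPM in CML and 34.8, 74.7, 109 and 66.3 CPM in CML-TKI. It rose in all CML-TKI libraries, least in CML-TKI 1 (log2 fold change 1.73 ± 0.36 SE, adjusted p = 0.0150; kept in 5 of 8 fits). Slc9a8, a sodium-proton exchanger of the Golgi and endosomes, was at 75.4, 70.5, 71.7 and 74.4 CPM in CML and 45.6, 43.1, 43.8 and 42.1 CPM in CML-TKI. Both groups kept within narrow ranges that did not meet (log2 fold change -0.74 ± 0.19 SE, adjusted p = 0.0347; kept in 3 of 8 fits). The ion class sum was 709 to 863 CPM in CML and 881 to 1040 CPM in CML-TKI.

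Carriers of the Slc35 family bring nucleotide sugars and nucleotides into the endoplasmic reticulum and Golgi for glycosylation. Of 22 tested, 3 were called higher and none lower by edgeR. Slc35b1, which exchanges ATP and ADP across the endoplasmic reticulum membrane, was at 17.02, 16.2, 12.6 and 16.8 CPM in CML and 41.4, 50.8, 43.8 and 30.96 CPM in CML-TKI. All CML-TKI libraries lay above all CML libraries (log2 fold change 1.41 ± 0.27 SE, adjusted p = 0.0113; kept in 7 of 8 fits). Slc35a5 was at 18.4, 18.3, 20.9 and 18.1 CPM in CML and 37.99, 53.6, 25.2 and 48.4 CPM in CML-TKI, with CML-TKI 3 close to CML 3 (log2 fold change 1.13 ± 0.29 SE, adjusted p = 0.0369; kept in 2 of 8 fits). Slc35e1, whose substrate is not well defined, was at 105, 98.2, 88.9 and 126 CPM in CML and 169, 236, 165 and 175 CPM in CML-TKI. CML-TKI 2 stood above the other CML-TKI libraries and all 4 were above the CML libraries (log2 fold change 0.83 ± 0.21 SE, adjusted p = 0.0336; kept in 3 of 8 fits). Slc35a4, the highest of the class per kilobase, was lower in every CML-TKI library without passing, at 221 ± 41.2 CPM in CML and 149 ± 42.01 CPM in CML-TKI (mean ± SD, n = 4 each) (log2 fold change -0.56 ± 0.26 SE, adjusted p = 0.206). Slc35f2 was at 13.1 to 19.3 CPM in CML, at 4.56 CPM in CML-TKI 1 and at 0 in the other 3, and missed the threshold (log2 fold change -3.48 ± 1.12 SE, adjusted p = 0.0799). Slc35f1 had 638 counts in CML-TKI 1 and none in the other 7 libraries.

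**Figure D3:**
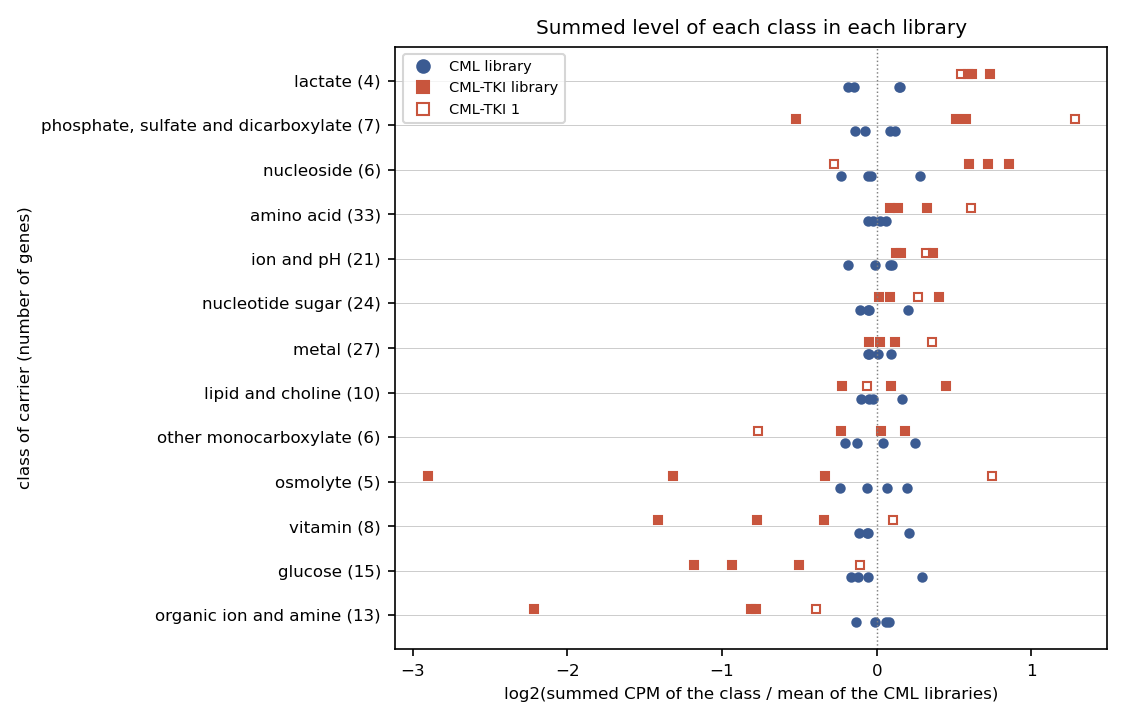
Summed CPM of each class in each library, as log2 of its ratio to the mean of the 4 CML libraries (x axis), by class (y axis, with the number of genes), with CML libraries as circles, CML-TKI libraries as squares and CML-TKI 1 as an open square. Lactate, amino acid and ion carriers lay above the CML range and organic ion carriers below it in all 4 CML-TKI libraries, and in the other classes the groups overlapped. The sums include Slc5a8 (lactate), Slc35f1 (nucleotide sugar) and Slc47a1 (organic ion), which had counts in CML-TKI 1 only.

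The remaining classes held 2 called carriers. Slc26a10, a member of the anion exchanger family, was at 0.681, 0.965, 1.93 and 1.10 CPM in CML and 5.32, 5.89, 18.6 and 10.1 CPM in CML-TKI. It rose in all CML-TKI libraries from 5 to 10 counts a library in CML (log2 fold change 3.04 ± 0.68 SE, adjusted p = 0.0214; kept in 4 of 8 fits), and it shares bases with B4galnt1 on the opposite strand. Slc14a2, a urea carrier, had 15, 21, 11 and 24 counts in CML and 2, 0, 0 and 1 in CML-TKI. Relative to the scaled library totals that is 12.6 times more in CML, with an exact 95% binomial interval of 4.13 to 62.3 that covers counting error only, and edgeR called it lower (adjusted p = 0.0352, kept in 2 of 8 fits). Its relative Slc14a1, the urea carrier of erythroid cells, was far more abundant, at 246, 215, 194 and 191 CPM in CML and 28.7, 2.48, 16.4 and 155 CPM in CML-TKI. CML-TKI 4 was the nearest to the CML libraries and CML-TKI 2 the lowest, and it did not pass (log2 fold change -2.03 ± 0.87 SE, adjusted p = 0.176).

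Phosphate importer Slc20a1 was at 77.5 ± 9.52 CPM in CML and 97.1 ± 54.3 CPM in CML-TKI (mean ± SD, n = 4 each) (log2 fold change 0.34 ± 0.40 SE, adjusted p = 0.649). Among 9 lipid and choline carriers edgeR called 0, with 2 at an unadjusted p under 0.05, 0 by DESeq2 and 1 by limma-voom, and the highest per kilobase, the choline carrier Slc44a2, was at 178 ± 25.5 CPM in CML and 223 ± 105 CPM in CML-TKI (mean ± SD, n = 4 each) (log2 fold change 0.32 ± 0.31 SE, adjusted p = 0.571). Of 8 vitamin carriers it also called 0, with 1 at an unadjusted p under 0.05, 1 by DESeq2 and 0 by limma-voom. The reduced folate carrier Slc19a1 was nearest, at 69.6, 71.2, 57.8 and 101 CPM in CML and 58.7, 37.2, 36.2 and 31.7 CPM in CML-TKI, where CML-TKI 1 just entered the CML range (log2 fold change -0.87 ± 0.28 SE, adjusted p = 0.0796). Slc23a2, the ascorbate carrier, was at 113 to 134 CPM in CML, at 147 and 117 CPM in CML-TKI 1 and 2 and at 35.1 and 27.1 CPM in CML-TKI 3 and 4 (log2 fold change -0.58 ± 0.48 SE, adjusted p = 0.489).

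**Figure D4:**
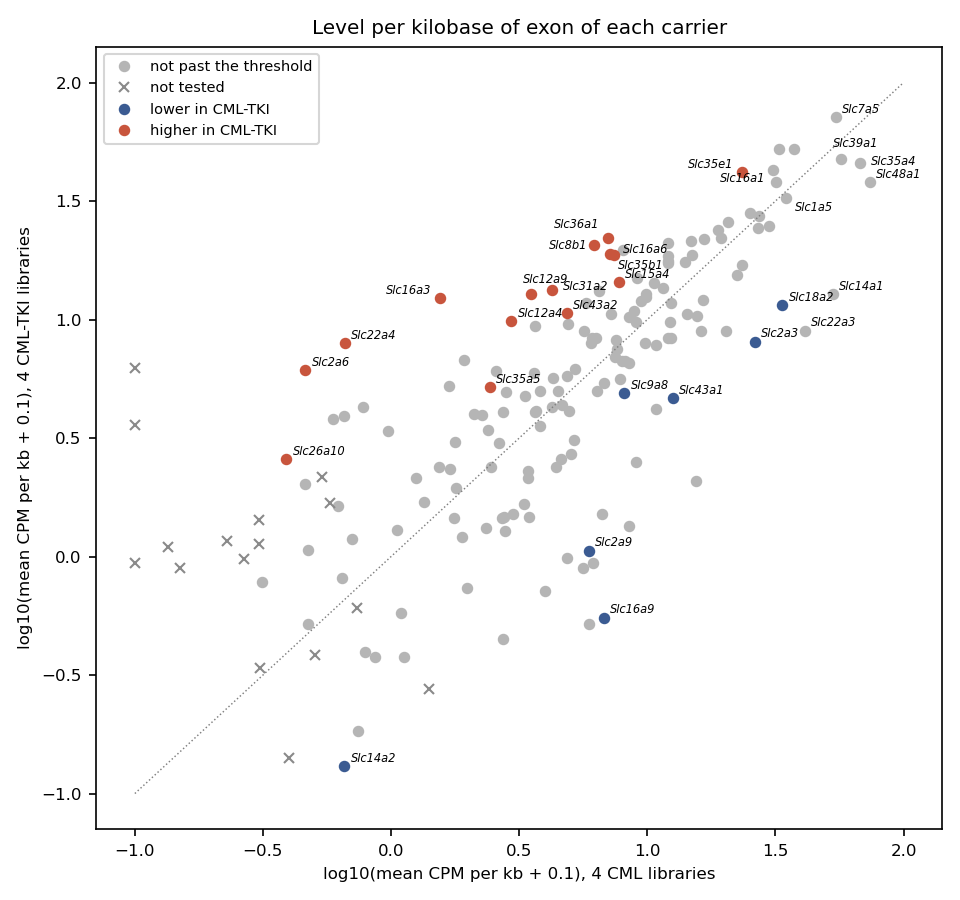
Mean level per kilobase of exon of the 178 carriers with a gene model in CML (x axis) and CML-TKI (y axis) libraries, as log10(CPM per kb + 0.1), with the dotted line at equal levels, called carriers in colour, untested ones as crosses and some carriers named. The called carriers that rose lay between 0.290 CPM per kb (Slc26a10) and 23.4 CPM per kb (Slc35e1) in CML, and the others of them at up to 7.62 CPM per kb (Slc15a4).

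CML-TKI 1 was the highest of all 8 libraries in 46 of the 179 carriers (25.7%) and in 18.7% of the 13062 genes with the same summed count of at least 50. In 9 carriers (5.03%) it had counts and CML-TKI 2, 3 and 4 had none, against 4.12% of those genes. 3 of these, Slc5a8, Slc35f1 and Slc47a1, were at 0 in every CML library as well, so they reached the summed count through CML-TKI 1 alone. The other 6 (Slc6a15, Slc6a17, Slc16a12, Slc22a17, Slc27a6 and Slc35f2) were found in CML and CML-TKI 1 and had no count in the other 3 CML-TKI libraries, of which the largest had 3.61e+06 counts. The creatine carrier Slc6a8 (83.2 CPM in CML-TKI 1, 0 to 4.54 CPM in the other 7), the sulfate carrier Slc26a2 (324 CPM against 28.6 to 52.5 CPM) and the inositol carrier Slc5a3 (372 CPM against 35.0 to 97.5 CPM) were also far higher in it than elsewhere.

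Some carriers described above without a call were called by edgeR once 1 library was left out. Without CML-TKI 1 the log2 fold changes of those that were higher were Slc15a3 (2.76, adjusted p = 0.0148), Slc28a2 (1.64, adjusted p = 0.000704), Slc29a3 (0.68, adjusted p = 0.0363), Slc30a5 (0.75, adjusted p = 0.0224) and Slc40a1 (2.06, adjusted p = 0.000982). Those of carriers called lower without it were Slc19a1 (-1.10, adjusted p = 0.0172), Slc37a1 (-1.78, adjusted p = 0.0135) and Slc41a1 (-1.88, adjusted p = 0.00394). Slc6a15, Slc16a12, Slc22a17, Slc27a6 and Slc35f2, all then at 0 in the remaining CML-TKI libraries, were called lower too. Without CML-TKI 2, Slc7a11 (1.93, adjusted p = 0.0457) was called higher and Slc22a3 (-1.82, adjusted p = 0.00474) lower. Slc48a1 was called lower without CML-TKI 3 (-1.44, adjusted p = 0.0122) and Slc14a1 without CML-TKI 4 (-3.72, adjusted p = 0.0135). Slc11a1 was not tested with all libraries. It entered the fit without CML-TKI 1 through 22, 9 and 11 counts in CML-TKI 2, 3 and 4, against 1 to 7 in CML. EdgeR then called it higher (2.99, adjusted p = 0.0253), but it passed the filter through the group where it is high, so no conclusion is drawn.

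16 carriers did not pass the filter on low counts, some because their counts lay in too few libraries, and were not tested. In 8 of them, Slc1a3, Slc2a12, Slc4a3, Slc4a8, Slc5a8, Slc35f1, Slc41a2 and Slc47a1, CML-TKI 1 held more counts than the other 7 libraries together, for example 131 of 145 for the glutamate carrier Slc1a3. Slc6a17 and Slc17a8 had 75 of 84 and 142 of 150 counts in CML. The other 6 were Slc2a13, Slc5a11, Slc6a3, Slc11a1, Slc27a3 and Slc35g2.

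Against other transporters measured the same way, the share of carriers called lay between those of 2 families. Of 38 mitochondrial Slc25a carriers edgeR called 0, with 5 at an unadjusted p under 0.05, 3 by DESeq2 and 4 by limma-voom, and their median log2 fold change was -0.04. Of 34 ABC transporters it called 8 (23.5%), 3 higher and 5 lower, with a median of -0.09. Of the 32 tested genes that act with carriers as partners, regulators or enzymes, 5 were called higher and 2 lower. No test between these lists was made.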

How the data were processed

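The deposited table holds estimated counts per gene that the authors made from paired reads (Nextera XT libraries) aligned to mm10 with STAR 2.6.1d and assigned to RefSeq Transcripts 92 in Partek Flow 8.0, per the labels and processing notes. The counts are not normalized, 8.32% to 22.1% of a library's gene values are not whole, and they were rounded here. All 4 CML and 4 CML-TKI libraries entered one fit with edgeR 4.0.16 (R 4.3.3): TMM scaling, filterByExpr (minimum count 10, minimum total 15), the robust quasi-likelihood test, two-sided, and Benjamini-Hochberg adjustment over all 11937 genes tested, with a threshold of 0.05. Every adjusted p of a single gene comes from this fit unless another tool or set of libraries is named. The code was first tested on simulated data. Ribosomal Rn45s took 9.23% to 38.3% of a library's counts and stayed in the library totals, and leaving it out was an alternative. DESeq2 1.42.0, limma-voom with quality weights on the libraries (limma 3.58.1), other scalings, filters and thresholds, a replicate block and leaving out each library were alternatives. CPM per kb divides by the summed exon length of the GENCODE vM21 gene model.

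The carriers, their classes and all gene lists were chosen with earlier results of these data known. Named are carriers called without overlap, a list of well-known carriers, the highest of each class per kilobase and those at the count limit. Called carriers whose groups overlap and others were named after their values were seen. 43 carriers share bases with another gene, 6 of the 22 called among them. 9 symbols that start with Slc and end in letters were left out by the symbol rule. Some carriers that the rule for named carriers takes in are not reported here.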

Additional observations from a re-analysis of the deposited data

Results flagged for a closer look

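Among 128 groups of 4 libraries checked, 1 library stood apart from the other 3 of its group in 12, where chance alone gives about 1 in 20, or 6.4. In CML the library was CML 5 for Slc16a3 (12.6 CPM, the other 3 at 5.60 to 6.37), Slc3a2 (123 CPM, others 85.0 to 90.1), Slc39a1 (180.4 CPM, others 118 to 122) and Slc12a2 (50.7 CPM, others 91.4 to 94.6). It was CML 3 for Slc35a5 (20.9 CPM, others 18.1 to 18.4) and Slc15a3 (4.06 CPM, others 1.09 to 1.54), and CML 2 for Slc43a3 (61.6 CPM, others 66.7 to 67.0).

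In CML-TKI the library was CML-TKI 1 for Slc29a3 (22.6 CPM, others 86.6 to 95.4) and Slc12a2 (278 CPM, others 1.55 to 30.2), CML-TKI 4 for Slc43a1 (46.0 CPM, others 17.3 to 21.4) and Slc2a1 (15.1 CPM, others 60.3 to 62.1), and CML-TKI 2 for Slc35e1 (236 CPM, others 165 to 175).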

How the results depend on the processing

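The count of 22 carriers called (15 higher, 7 lower) moved most. DESeq2 called 39 (24 higher, 15 lower, or 23.2% against 17.7% of all genes). With quality weights on the libraries, limma-voom called 45 (23 higher, 22 lower, or 27.6% against 21.3%), where the median of all genes was -0.11 and that of the carriers -0.039. Tool and weights changed together there, so their parts cannot be told apart. An adjusted p under 0.01 kept 3, with 3 higher and 0 lower. Summing CML 1 to 3 to 1 library gave 0 called, 0 higher and 0 lower, with 28 at an unadjusted p under 0.05. Leaving out 1 library gave 4 to 48 called, 4 to 24 higher and 0 to 24 lower, with medians of 0.033 to 0.21. The cause was not tested.

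Same-numbered libraries correlated at -0.04, 0.10 and 0.09, none over 0.1, so the numbers were not taken to pair them. A replicate block over libraries 1 to 3 called 0 (0 higher, 0 lower, 31 at an unadjusted p under 0.05, or 18.9% against 18.5% of all genes) and 1.60% of all genes, with a median of 0.033, and the same libraries without it, added after seeing the data, called 10 (6 higher, 4 lower), or 6.10% against 4.88% of all genes. Under the block the log2 fold changes of Slc16a7 (-0.44), Slc11a2 (-0.11), Slc12a2 (-2.13) and Slc20a1 (-0.11) changed sign, and without it those of Slc16a7 (-0.12), Slc1a5 (0.000916) and Slc39a1 (0.015).

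None of the carriers called changed direction. Of those not called with all libraries, the log2 fold change reversed under limma-voom for Slc2a1 (-0.080), Slc16a7 (-0.55), Slc1a5 (0.021), Slc3a2 (-0.039) and Slc12a2 (-1.98), under RLE size factors for Slc3a2 (-0.015) and Slc12a2 (-0.0055), without a filter for Slc3a2 (-0.029) and Slc12a2 (-0.029), under DESeq2 for Slc3a2 (-0.021), and with CML 1 to 3 summed for Slc3a2 (-0.15). Leaving out 1 library gave -0.56 to 0.29 for Slc16a7, -0.23 to 0.052 for Slc1a5, -0.34 to 0.19 for Slc3a2, -0.071 to 0.48 for Slc11a2, -2.40 to 0.41 for Slc12a2 and -0.051 to 0.51 for Slc44a2. Depth limits low carriers most in CML-TKI 3, where 3 counts are 3.29 CPM.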
